A study of Mus musculus with 2 samples.

Results

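The forkhead genes encode transcription factors that share a winged-helix DNA-binding domain, and their values were compared between perigonadal white adipose tissue (WAT) of PeriA Tg mice and WT mice. Members were taken by name: a gene was kept when its symbol was Fox followed by 1 letter and a number and at least 1 probe set was annotated to it alone. This gave 37 of the 18193 genes on the array, covered by 82 probe sets. The PeriA Tg mice were heterozygous for human perilipin A, a coat protein of lipid droplets, driven by the aP2 promoter/enhancer, which is active in adipocytes. The WT mice were littermates without the transgene. Both genotypes were female, 30 weeks old, on the C57BL/6 background and fed a high-fat diet (HFD). Tissue was taken after an overnight fast, RNA of 3 mice was pooled for each genotype, and each pool was run on 1 array, so no value has a replicate and no difference could be tested.

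In fat, the FOXO factors are the best known of the family. Insulin acting through Akt phosphorylates them and drives them out of the nucleus, while in fasting they return to it and switch on genes of fuel use, stress resistance and cell-cycle arrest. FOXC2, when overexpressed in adipocytes, gives white fat features of brown fat and raises its sensitivity to catecholamines, and FOXM1 drives the genes of the G2 and M phases in dividing cells.

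Values are signals of 1 probe set per gene, the one with the highest mean log2 signal, and differences are signal log ratios, the log2 of the Tg signal over the WT signal. A gene passed the filter when the brighter of its 2 signals reached 98.2, the median over every signal of the pair of arrays, and ratios over 0.3 or under -0.3 were counted. The arrays had medians of 95.4 in Tg and 101.1 in WT WAT, and the adipocyte markers *Adipoq*, the gene of adiponectin (43802 in Tg, 41052 in WT), and *Fabp4*, a fatty acid carrier (53339 in Tg, 51832 in WT), were bright on both. Signals of different probe sets are not on one scale, so no order of levels among the forkhead genes is given.

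Of the 37 forkhead genes, 16 (43.2%) passed the filter, against 63.7% of all genes. On both arrays 13 were at or above the median: *Foxc1*, *Foxj2*, *Foxj3*, *Foxk1*, *Foxk2*, *Foxl2*, *Foxn2*, *Foxn3*, *Foxo1*, *Foxo3*, *Foxo4*, *Foxp1* and *Foxp4*. Another 3, *Foxs1*, *Foxp2* and *Foxc2*, reached it in Tg WAT alone, and 0 reached it in WT WAT alone. The members nearest the filter were *Foxc2* just above it, with 107.2 in Tg WAT as its brighter signal, and *Foxm1* just below it, with 85.5 in WT WAT as its brighter signal. In 8 members, *Foxj2*, *Foxj3*, *Foxk2*, *Foxn2*, *Foxn3*, *Foxo1*, *Foxo3* and *Foxp1*, both signals were over 470.5, the 75th percentile of all signals.

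Among the 16, *Foxs1*, *Foxp2*, *Foxc2*, *Foxj2* and *Foxj3* had ratios over 0.3, *Foxl2* had a ratio under -0.3, and 10 lay between. Over all 11587 genes past the filter, 16.6% were over 0.3 and 16.9% under -0.3. The median ratio of the 16 was 0.18, against 0.02 over all genes, and 10 of the 16 were above 0, against 53.2% of all genes. The 3 largest ratios belonged to the genes that reached the median in Tg WAT alone, so the filter itself favoured a higher Tg signal there. Among the 13 genes at the median on both arrays, 2 were over 0.3 and 1 under -0.3, with a median of 0.04. Among all 10850 such genes, 15.4% were over, 14.6% under and the median was 0.03. The count over 0.3 was 6 after quantile normalization, 5 after loess and 8 after centring each array on its median, and the count under -0.3 was 1 in each. With median centring 65.6% of all called genes were on the higher side, against 49.6% as deposited. In bulk tissue, fewer cells of a type and less RNA per cell cannot be told apart.

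**Figure D1:**
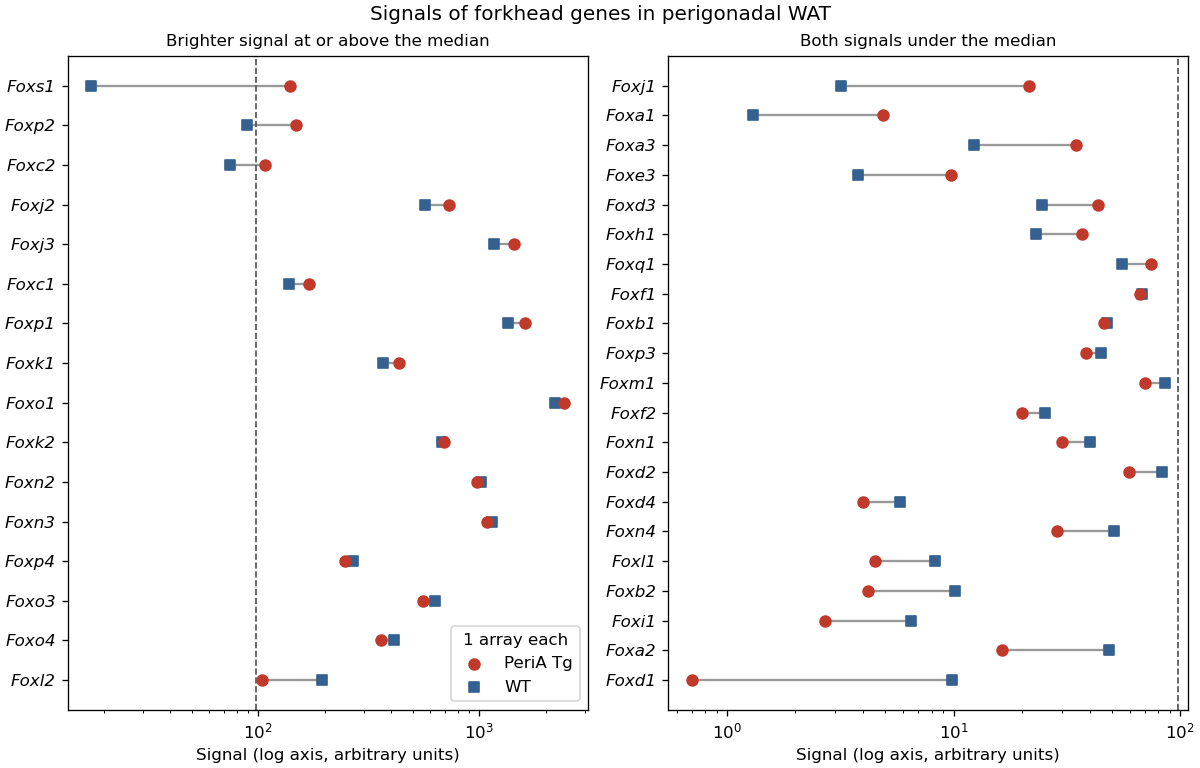
Signals (arbitrary units, log axis) of the 37 forkhead genes in PeriA Tg (circles) and WT (squares) WAT, 1 pooled array per genotype, with the 16 past the filter on the left, the 21 under it on the right and the median of all signals (98.2) as a dashed line. *Foxs1*, *Foxp2* and *Foxc2* lie above the line in Tg WAT and below it in WT WAT.

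**Figure D2:**
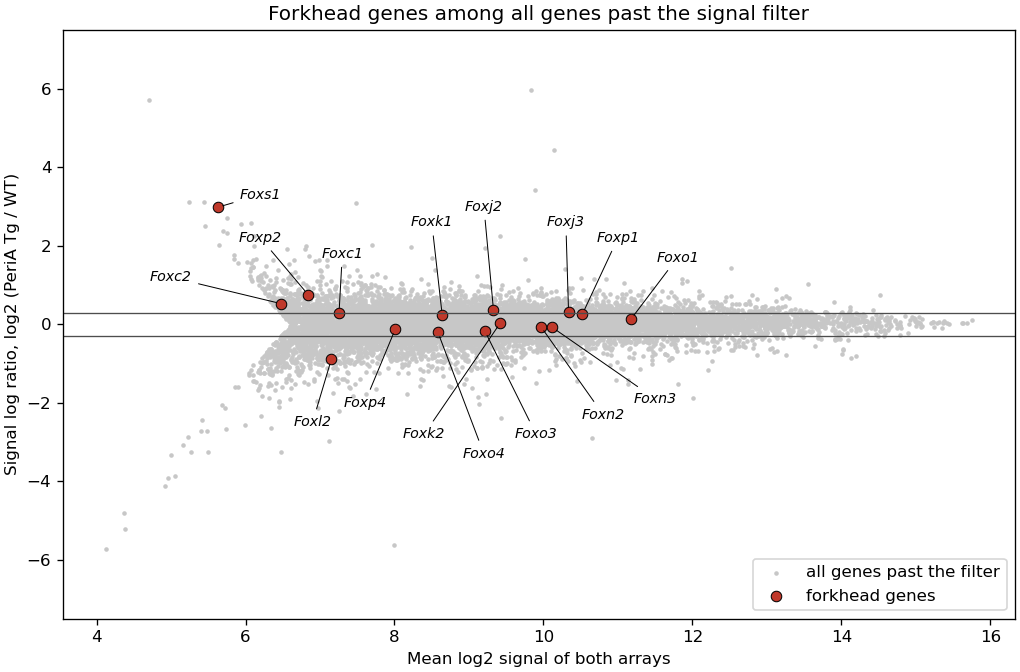
Signal log ratio (log2, PeriA Tg over WT) against mean log2 signal of both arrays for the 11587 genes past the filter in grey and the 16 forkhead genes in red, with lines at 0.3 and -0.3. *Foxs1*, at 2.99, lies farthest from 0 among the 16, at a low mean signal. The filter on the brighter signal leaves only wide ratios among the genes of lowest mean signal.

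The FOXO factors differed little between the arrays by their brightest probe sets. *Foxo1*, which restrains adipocyte differentiation and takes part in the fasting response, had a signal of 2424 in Tg and 2208 in WT WAT, a ratio of 0.14. Its next probe sets had 1447 in Tg against 1772 in WT WAT and 1141 in Tg against 1376 in WT WAT, ratios of -0.29 and -0.27. The direction for *Foxo1* therefore depended on the probe set, and the 3 that passed the filter stayed within 0.3 of 0. *Foxo3*, a regulator of stress resistance and autophagy, had 559.7 in Tg and 628.6 in WT WAT (-0.17), and its second probe set had 469.2 in Tg and 532.8 in WT WAT (-0.18). *Foxo4*, a related FOXO factor, had 357.7 in Tg and 410.8 in WT WAT (-0.20). The dim further probe sets of these genes were all lower in Tg WAT, with ratios of -1.64 for *Foxo1*, -1.06 for *Foxo3* and -1.52 for *Foxo4*, at signals under 50 on both arrays. The 5′ ends of the 4 poly-A control pairs were also lower than their 3′ ends in Tg relative to WT, with a median difference of -0.55 on the log2 scale, and the same difference was -0.25 for *Actb* and -0.33 for *Gapdh*. Its part in the spread between probe sets was not tested.

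Genes of insulin and Akt signalling to FOXO, together with enzymes and binding proteins that act on FOXO proteins, were mostly between the thresholds. Of 24 such genes past the filter, 5 (20.8%) were over 0.3, near the 16.6% of all genes, 0 were under -0.3, against 16.9%, and the median ratio was 0.13. The 0 depended on the probe set. By the median over the probe sets of each gene, 5 were over and 2 under, against 15.7% and 21.3% of all genes. By the second-brightest probe set, which fewer genes have, 4 were over and 4 under, against 17% and 25.8%. The insulin receptor *Insr* had 1285 in Tg and 764.6 in WT WAT (0.75), and *Irs1*, the receptor's main docking protein in adipocytes, had 2920 in Tg and 1829 in WT WAT (0.68). *Akt2*, the kinase that carries most of the insulin signal in fat, had 3169 in Tg and 2347 in WT WAT (0.43), and *Pdpk1*, the kinase that activates Akt, had 2411 in Tg and 1889 in WT WAT (0.35). *Ep300*, an acetyltransferase that modifies FOXO proteins, had 939.9 in Tg and 686.5 in WT WAT (0.45). These are transcript signals, and the phosphorylation that moves FOXO proteins out of the nucleus was not measured. By the brightest probe sets, the lowest ratio of the list was -0.27, for *Pik3ca*, a catalytic subunit of phosphoinositide 3-kinase.

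Known FOXO target genes went both ways. Of 36 past the filter, 9 (25%) were over 0.3 and 4 (11.1%) under -0.3, against 16.6% and 16.9% of all genes, with a median of 0.08. The balance depended on the probe set. By the median over the probe sets of each gene, 6 targets were over and 9 under, against 15.7% and 21.3% of all genes. By the second-brightest probe set, which fewer genes have, 3 were over and 8 under, against 17% and 25.8%. The higher ones included *Insr* itself and *Trib1*, with 199.9 in Tg and 124.8 in WT WAT (0.68). *Lpin1*, a phosphatidate phosphatase, had 8395 in Tg and 5822 in WT WAT (0.53). Also over 0.3 were the fasting-induced genes *Pdk4*, with 9402 in Tg and 6846 in WT WAT (0.46), and *Pck1*, with 8527 in Tg and 6250 in WT WAT (0.45). *Pdk4* encodes the kinase that shuts down pyruvate dehydrogenase, and *Pck1* the enzyme that feeds glyceroneogenesis in fat. The 4 lower ones were genes of growth arrest and apoptosis. *Gadd45b*, a stress-response gene, had 563.9 in Tg and 1093 in WT WAT (-0.96). *Cdkn1a*, the cell-cycle inhibitor p21, had 1422 in Tg and 2412 in WT WAT (-0.76). *Bbc3*, a pro-apoptotic protein, and *Cdkn2d*, a further cell-cycle inhibitor, had ratios of -0.49 and -0.42. Further arrest and detoxification targets had ratios on both sides of 0, with 0.35 for *Gadd45a*, -0.05 for *Cdkn1b*, 0.31 for the catalase gene *Cat* and -0.15 for the superoxide dismutase gene *Sod2*.

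Promoter windows from RefSeq (GRCm38.p6, 250 bases before to 50 after the gene start) were searched for the FOXO-type forkhead motif GTAAACA on both strands, which reads TGTTTAC on the other strand. It occurred in 5 of the 34 FOXO targets with a window (14.7%), against 4.05% of all 27025 genes. The match is a description of the letters only. Windows of the 4 matched targets that passed the filter are shown 5′ to 3′ in the direction of transcription, with the motif in capitals, so that the motif can be set beside the ratio of each gene.
Bcl2l11: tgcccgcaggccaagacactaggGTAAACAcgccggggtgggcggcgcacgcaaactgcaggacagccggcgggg
Bbc3: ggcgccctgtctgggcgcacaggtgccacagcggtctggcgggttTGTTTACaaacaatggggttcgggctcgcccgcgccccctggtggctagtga
Sesn1: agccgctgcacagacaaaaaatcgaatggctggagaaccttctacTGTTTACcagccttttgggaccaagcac
Txnip: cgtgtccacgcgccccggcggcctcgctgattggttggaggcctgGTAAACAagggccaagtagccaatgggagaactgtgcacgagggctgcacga
The windows are chr2:128125788-128125862 on the plus strand for *Bcl2l11*, chr7:16310049-16310145 on the plus strand for *Bbc3*, chr10:41810551-41810623 on the plus strand for *Sesn1* and chr3:96557791-96557887 on the plus strand for *Txnip*. *Bcl2l11*, the pro-apoptotic protein Bim, had 691.6 in Tg and 847.9 in WT WAT (-0.29), and *Bbc3* had 153.6 in Tg and 215.9 in WT WAT (-0.49). *Sesn1*, a stress-induced inhibitor of growth signalling, had 2355 in Tg and 2186 in WT WAT (0.11), and *Txnip*, an inhibitor of glucose uptake, had 18471 in Tg and 17660 in WT WAT (0.06). Of these 4 genes, 0 were over 0.3 and 1 was under -0.3, with a median of -0.11, while of the 27 targets past the filter without the letters in the window 7 were over, 3 under and the median was 0.09. Among 24 forkhead genes with a window, the letters occurred in 1, *Foxa1*.

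*Foxs1* had the largest ratio among the 16 forkhead genes and, like *Foxc2* and *Foxp2*, passed the filter through its Tg signal alone, so a higher Tg value was built in for these 3. *Foxs1*, found in sensory neurons derived from the neural crest and in perivascular cells, had 139.4 in Tg and 17.6 in WT WAT, a ratio of 2.99 and a 7.92-fold difference. The WT signal was under 25.1, the 25th percentile of all signals, and with both signals raised to at least 56.9, the 40th percentile, the ratio was 1.29 and the difference 2.45-fold. *Foxs1* has a single probe set, so no second one could be set beside it. Of 15 pericyte and smooth muscle markers, all past the filter, 1 (6.67%) was over 0.3 and 5 (33.3%) under -0.3. Over all genes past the filter the shares were 16.6% and 16.9%. The markers had a median of -0.15 and summed signals of 38419 in Tg and 42413 in WT WAT. Their ratios ran from *Ndufa4l2*, with 192.6 in Tg and 358.5 in WT WAT (-0.90), to *Des*, with 791.1 in Tg and 641.9 in WT WAT (0.30), and the pericyte marker *Rgs5* had 8268 in Tg and 8624 in WT WAT (-0.06). The part of perivascular cells in the *Foxs1* signal was not tested.

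*Foxc2*, required for lymphatic vessels and valves as well as active in fat, had 107.2 in Tg and 74.5 in WT WAT, a ratio of 0.52. *Foxc1*, its closest relative, acting with it in vessels and mesenchyme, had 169.1 in Tg and 138.1 in WT WAT (0.29), and its second probe set gave 170.2 in Tg and 137.1 in WT WAT (0.31), so it lay just under the threshold by the first and just over it by the second. Of 6 lymphatic endothelial markers past the filter, 3 were over 0.3, against 16.6% of all genes, and 0 under -0.3, with a median of 0.48 and summed signals of 5103 in Tg and 3892 in WT WAT. The lymphatic hyaluronan receptor *Lyve1* had 1287 in Tg and 770.0 in WT WAT (0.74), while the other 2, *Mmrn1* (215.7 in Tg, 57.2 in WT, 1.91) and *Reln* (129.9 in Tg, 46.6 in WT, 1.48), passed through their Tg signals alone. *Flt4*, the receptor of lymphatic growth factors, had 216.7 in Tg and 216.8 in WT WAT, *Pdpn* and *Nrp2* had ratios of 0.22 and 0.20, and *Prox1*, the factor that sets lymphatic identity, was dim on both arrays (16.6 in Tg, 18.1 in WT). Of 12 general endothelial markers, 0 were over 0.3 and 1 (8.33%) was under -0.3, against 16.6% and 16.9% of all genes. The part of lymphatic cells in the *Foxc2* signal was not tested.

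Of 12 genes tied to FOXC2 in fat, 5 (41.7%) were over 0.3 and 3 (25%) under -0.3, against 16.6% and 16.9% of all genes, with a median of 0.06. FOXC2 is known to alter the regulatory subunits of protein kinase A in fat, and these differed in size: *Prkar1a*, the subunit best tied to FOXC2, had 6587 in Tg and 6088 in WT WAT (0.11), *Prkar1b*, which passed through its WT signal alone, had 88.0 in Tg and 215.0 in WT WAT (-1.29), and *Prkar2a* had 1118 in Tg and 1405 in WT WAT (-0.33). Besides *Insr* and *Irs1*, the higher ones were hormone-sensitive lipase *Lipe*, with 8123 in Tg and 5629 in WT WAT (0.53), the mitochondrial coactivator *Ppargc1a*, with 138.7 in Tg and 100.1 in WT WAT (0.47), and the mitochondrial DNA factor *Tfam*, with 1075 in Tg and 870.9 in WT WAT (0.30). *Angpt2*, a vessel-remodelling ligand induced by FOXC2, had 194.6 in Tg and 253.8 in WT WAT (-0.38). All 8 brown adipocyte markers past the filter were over 0.3, against 16.6% of all genes, with a median of 2.26. Of these 8, 2 passed through their Tg signals alone. The part of brown adipocytes in the forkhead values was not tested.

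The FOXP genes, which encode repressors that act as dimers, differed from one another. *Foxp2*, known from vocal and motor circuits, had 148.9 in Tg and 88.6 in WT WAT, a ratio of 0.75. All 6 of its probe sets were higher in Tg WAT, from 0.07 to 1.83, but 1 alone reached the filter and the others had at most 66.9 in Tg and 63.8 in WT WAT. *Foxp1*, a regulator of B cells, heart and lung that also restrains thermogenic fat in mice, had 1609 in Tg and 1345 in WT WAT (0.26). All 8 *Foxp1* probe sets passed the filter, and their ratios ran from -0.24 to 0.60, 6 above 0 and 2 below. *Foxp4* had 247.0 in Tg and 269.1 in WT WAT (-0.12), with 135.8 in Tg and 130.0 in WT WAT (0.06) for its second probe set. *Foxp3*, the master factor of regulatory T cells, stayed under the filter with 38.3 in Tg and 44.6 in WT WAT. T cell markers were themselves low, with 6 of 12 past the filter and summed signals of 1456 in Tg and 1511 in WT WAT. Of the 6, 3 were over 0.3 and 2 under -0.3, against 16.6% and 16.9% of all genes. Among the 3, *Tnfrsf18* (113.1 in Tg, 81.4 in WT) passed through its Tg signal alone, so a higher Tg value was built in. With the median required on both arrays, 2 were over 0.3 and 2 under -0.3.

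The FOXJ and FOXK genes past the filter were broadly expressed ones. *Foxj2*, a transcriptional activator, had 729.3 in Tg and 567.2 in WT WAT (0.36), and *Foxj3*, which in muscle controls a regulator of mitochondrial genes, had 1436 in Tg and 1165 in WT WAT (0.30). These 2 were the ones over 0.3 among the 13 genes at the median on both arrays. *Foxj3* lay at 0.302 and *Foxc1* at 0.292, so the threshold fell between values that hardly differ. *Foxk1*, which like *Foxk2* induces glycolysis and represses autophagy genes, had 432.4 in Tg and 368.5 in WT WAT (0.23). *Foxk2* had 694.9 in Tg and 676.7 in WT WAT (0.04), and its 5 probe sets, all past the filter, ran from -0.62 to 0.04.

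*Foxn2*, a little-studied relative of *Foxn3*, had 979.8 in Tg and 1020 in WT WAT (-0.06), and *Foxn3*, a checkpoint suppressor, had 1082 in Tg and 1144 in WT WAT (-0.08). The other 3 probe sets of *Foxn3* gave -0.33, -0.23 and 0.82. The one at 0.82, with 154.6 in Tg and 87.5 in WT WAT, passed through its Tg signal alone, so a higher Tg value was built in. Of the 7 members past the filter with several passing probe sets, 5 had them in both directions, as *Foxn3* did.

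**Figure D3:**
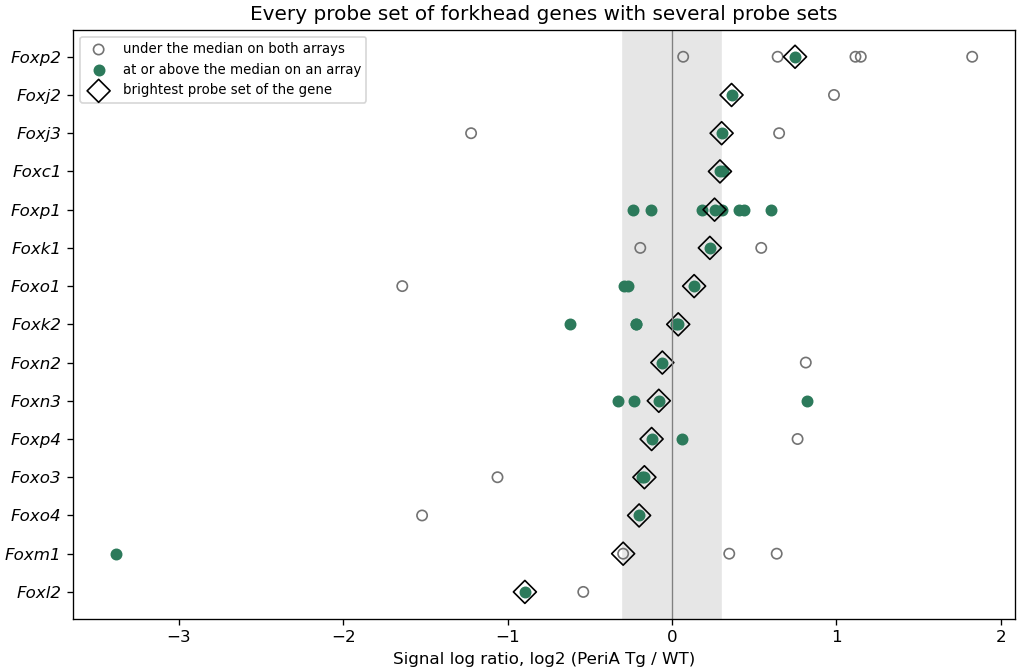
Signal log ratio (log2, PeriA Tg over WT) of every probe set of the forkhead genes that have several and at least 1 past the filter, with filled points at or above the median of all signals on an array, open points below it on both, a diamond on the brightest and grey shading from -0.3 to 0.3. *Foxp2* lies above 0 in all 6 probe sets, while *Foxo1*, *Foxk2*, *Foxn3*, *Foxp1* and *Foxp4* have filled points on both sides of 0.

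*Foxl2*, the factor that keeps granulosa cells of the ovary in their identity, was the member past the filter with a ratio under -0.3. It had 104.3 in Tg and 193.9 in WT WAT, a ratio of -0.89, so WT was 1.86-fold higher. Its second probe set was dim but on the same side, with 22.5 in Tg and 32.7 in WT WAT (-0.54). Of 11 ovary markers, 2 passed the filter: *Star*, the cholesterol carrier of steroid synthesis, with 229.1 in Tg and 161.5 in WT WAT (0.50), and the oocyte factor *Gdf9*, with 106.8 in Tg and 143.1 in WT WAT (-0.42). The summed ovary signal was 660.1 in Tg and 571.6 in WT WAT, although 7 of the 11 markers had the lower signal in Tg WAT, and the part of ovary tissue in the *Foxl2* signal was not tested.

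The other 21 forkhead genes stayed under the filter, with signals from 0.7 to 74.3 in Tg and from 1.3 to 85.5 in WT WAT, and 17 of them had both signals under 56.9. They include most of the factors of other lineages: the endoderm factors *Foxa1*, *Foxa2* and *Foxa3*, the neural crest and kidney stroma factors *Foxd3* and *Foxd1*, the thymus factor *Foxn1*, the retina factor *Foxn4*, the lens factor *Foxe3*, the ionocyte factor *Foxi1* and the Nodal partner *Foxh1*. Their ratios ran from -3.81 for *Foxd1* (0.7 in Tg, 9.8 in WT) to 2.75 for *Foxj1* (21.6 in Tg, 3.2 in WT). *Foxa1* (4.9 in Tg, 1.3 in WT, 1.91) and *Foxe3* (9.7 in Tg, 3.8 in WT, 1.35) were also past 1, and *Foxi1* (2.7 in Tg, 6.5 in WT, -1.27) and *Foxb2* (4.2 in Tg, 10.1 in WT, -1.27) past -1. Ratios of such dim signals were wide in the whole table: 38.4% of the 6606 genes under the filter were over 0.3 and 39.1% under -0.3, and of the 21 forkhead genes 7 were over and 10 under. The brain factors *Foxb1* (46.2 in Tg, 47.7 in WT) and *Foxb2* and the embryonic factor *Foxd4* (4.0 in Tg, 5.8 in WT) complete the group. *Foxj1* drives motile cilia, and of 16 ciliated cell markers 3 passed the filter, each through its WT signal alone, so that a lower Tg value was built in; the whole list had summed signals of 567.5 in Tg and 801.6 in WT WAT.

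Some of these dim members are known from adipocyte biology. *Foxa2*, which restrains preadipocyte differentiation in mice, had 16.3 in Tg and 48.7 in WT WAT (-1.58). *Foxa3*, which promotes adipogenesis in mice, had 34.8 in Tg and 12.3 in WT WAT (1.50). Both lay far below the median of all signals on either array. *Foxf1*, a factor of visceral mesenchyme, had 66.7 in Tg and 67.6 in WT WAT (-0.02), and *Foxf2*, a factor of pericytes and gut mesenchyme, had 20.0 in Tg and 25.4 in WT WAT (-0.34). *Foxd2*, a mesenchymal factor, had 59.6 in Tg and 83.5 in WT WAT (-0.49). *Foxq1*, which lies beside *Foxf2* and *Foxc1* on chromosome 13, had 74.3 in Tg and 55.1 in WT WAT (0.43), and *Foxl1*, beside *Foxc2* on chromosome 8, had 4.5 in Tg and 8.3 in WT WAT (-0.88). The second probe set of *Foxq1* had 2.2 in Tg and 21.6 in WT WAT (-3.30), so its direction depended on the probe set.

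*Foxm1* itself gave no settled value. Its brightest probe set had 69.6 in Tg and 85.5 in WT WAT (-0.30), under the filter on both arrays. A second one had 12.8 in Tg and 133.4 in WT WAT (-3.38), and 2 dimmer ones gave 0.35 and 0.64. The probe sets of *Foxm1* thus differed in direction, and the one past the filter in WT WAT had the lowest ratio of them. It passed through its WT signal alone, so a lower Tg value was built in.

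Known FOXM1 targets had lower signals in Tg WAT. Of 17 past the filter, 13 (76.5%) were under -0.3 and 0 were over 0.3, against 16.9% and 16.6% of all genes, and the median was -0.72. The mitotic cyclin *Ccnb2* had 78.4 in Tg and 264.9 in WT WAT (-1.76), and *Ccna2*, the cyclin of S and G2 phases, had 150.4 in Tg and 289.1 in WT WAT (-0.94). *Aurkb*, a kinase of chromosome segregation, had 70.1 in Tg and 163.0 in WT WAT (-1.22). *Cdk1*, the kinase that starts mitosis, had 423.5 in Tg and 707.6 in WT WAT (-0.74), the DNA topoisomerase *Top2a* had 199.8 in Tg and 354.9 in WT WAT (-0.83), and the proliferation marker *Mki67* had 209.3 in Tg and 364.3 in WT WAT (-0.80). The 4 that lay between the thresholds were *Aurka* (114.9 in Tg, 113.9 in WT, 0.01), *Cdc25b* (232.9 in Tg, 216.7 in WT, 0.10), *Skp2* (153.8 in Tg, 184.9 in WT, -0.27) and *Cks1b* (3904 in Tg, 4279 in WT, -0.13). Of the 13, 5 passed through their WT signals alone, *Ccnb2* and *Aurkb* among them, so that a lower Tg value was built in. With the median required on both arrays, 8 of 12 targets were under -0.3 with a median of -0.58, against 14.6% of all such genes. These are genes of any dividing cell. Of 12 macrophage markers, 10 had the lower signal in Tg WAT, with a median ratio of -0.26. Of the 12, 5 (41.7%) were under -0.3 and 0 over 0.3, against 16.9% and 16.6% of all genes. Their ratios ran from *Trem2*, with 294.5 in Tg and 1062 in WT WAT (-1.85), to *Cd14*, with 1071 in Tg and 947.6 in WT WAT (0.18). Their summed signals were 40414 in Tg and 48637 in WT WAT. The part of macrophages in the lower cell-cycle signals was not tested.

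The same promoter windows were searched for the cell cycle genes homology region (CHR), TTTGAA or TTCGAA on both strands, the element through which the MuvB complex with FOXM1 binds many genes of the G2 and M phases. The first of these reads TTCAAA on the other strand, and the second is the same on both. It occurred in 14 of the 18 FOXM1 targets with a window (77.8%), against 21.7% of all genes and 3 of the 24 forkhead genes (12.5%). Of 12 matched targets past the filter, 8 were under -0.3, against 16.9% of all genes, and the median of the 12 was -0.59. Among the 8, *Ccnb2*, *Cenpf* (71.5 in Tg, 99.6 in WT) and *Bub1b* (94.6 in Tg, 154.6 in WT) passed through their WT signals alone. A lower Tg value was built in for these. The 2 targets without the letters were both under -0.3 with a median of -0.64. Windows of 4 targets with lower signals in Tg WAT, *Ccnb2*, *Cdk1*, *Top2a* and *Mki67*, and of 2 that hardly differed, *Aurka* and *Cdc25b*, are shown in the direction of transcription with the element in capitals, since all 6 hold it. The promoters of *Ccnb2*, *Cdk1* and *Top2a* hold further matches outside the stretches shown.
Ccnb2: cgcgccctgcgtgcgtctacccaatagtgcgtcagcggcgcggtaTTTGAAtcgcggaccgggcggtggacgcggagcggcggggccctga
Cdk1: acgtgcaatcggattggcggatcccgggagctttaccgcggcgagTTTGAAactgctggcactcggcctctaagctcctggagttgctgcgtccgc
Top2a: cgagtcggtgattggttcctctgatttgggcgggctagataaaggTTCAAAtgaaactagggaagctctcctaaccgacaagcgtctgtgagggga
Mki67: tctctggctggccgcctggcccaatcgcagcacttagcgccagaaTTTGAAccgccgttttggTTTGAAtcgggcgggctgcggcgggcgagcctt
Aurka: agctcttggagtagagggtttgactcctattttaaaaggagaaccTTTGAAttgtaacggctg
Cdc25b: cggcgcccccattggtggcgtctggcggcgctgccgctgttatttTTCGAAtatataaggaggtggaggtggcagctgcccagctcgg
The windows are chr9:70421505-70421595 on the minus strand for *Ccnb2*, chr10:69352877-69352972 on the minus strand for *Cdk1*, chr11:99024162-99024257 on the minus strand for *Top2a*, chr7:135716445-135716540 on the minus strand for *Mki67*, chr2:172370521-172370583 on the minus strand for *Aurka* and chr2:131186910-131186997 on the plus strand for *Cdc25b*. The letters were thus present both in *Ccnb2*, the target with the lowest ratio past the filter, and in *Cdc25b*, the one with the highest.

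**Figure D4:**
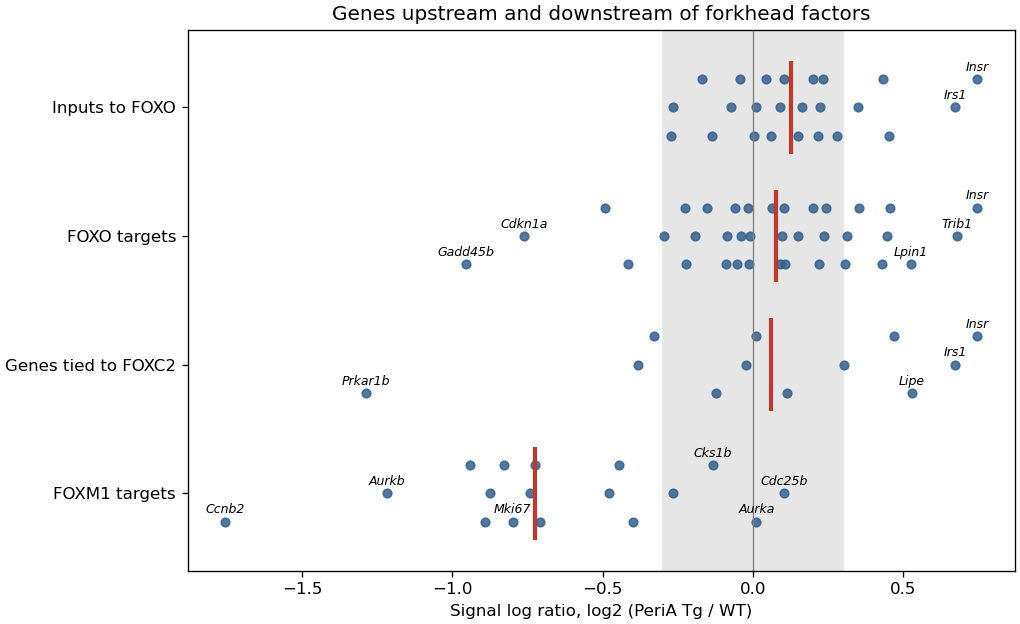
Signal log ratio (log2, PeriA Tg over WT) of each gene past the filter in 4 gene lists, the insulin and Akt inputs to FOXO, the FOXO targets, the genes tied to FOXC2 and the FOXM1 targets, with a red bar at each median and grey shading from -0.3 to 0.3. The FOXM1 targets have a median of -0.72, while the medians of the other lists lie between 0.06 and 0.13.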

How the data were processed

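Gene expression was measured on an Affymetrix mouse genome array in 2 samples, a pool of PeriA Tg and a pool of WT perigonadal WAT, grouped by the labels. The authors deposited linear signal intensity values of 45101 probe sets, made with GeneChip Operating Software. The submitters' processing notes name MAS5, which reads perfect-match probes against their mismatch probes, so dim signals are imprecise. Both arrays had a 2% trimmed mean of 500.0. The authors' Present calls were not used here, and the signal filter stands in for them.

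The log2 ratio of the Tg over the WT intensity was computed with no pseudocount (Python 3.11.15, numpy 2.4.6, pandas 2.3.3) and tested on simulated data. Gene names came from the platform annotation, and all 37 gene IDs matched RefSeq. The 64 control probe sets and the 932 with several symbols were left out, and 9160 had none listed. By the naming rule, signals are given for every forkhead gene past the filter and for the list genes of largest ratio. They are also given for forkhead genes under the filter with a ratio past 1 or -1 or a passing probe set. Further genes under the filter, near 0, past the filter on 1 array alone or with a shown promoter were named after their values were seen. With 1 array per genotype, no p-value or error could be given. The number of arrays limits the precision. Members, gene lists and thresholds were chosen with earlier results of these data known. The 11 alternatives changed scaling, low signals, the filter or the probe set of a gene.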

Additional observations from a re-analysis of the deposited data

How the results depend on the processing

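No paired analysis was possible because each genotype has 1 array. The count of forkhead genes over 0.3, 5 as reported, was 8 after median centring, 12 with no filter, 2 with the filter required on both arrays, 2 with the filter at the 75th percentile and 2 by the second-brightest probe set. The count under -0.3, 1 as reported, was 11 with no filter, 0 with the filter at the 75th percentile, and 2 by the median over probe sets, by the second-brightest probe set or by the brightest one without a suffix. The stricter filters test fewer genes. Dropping the filter added the 21 genes under it, 7 of them over 0.3 and 10 under -0.3. Median centring raised every ratio by 0.08, which put *Foxc1* (0.38), *Foxp1* (0.34) and *Foxk1* (0.31) over 0.3 as well. The cause of the shifts with the choice of probe set was not tested. Median centring gave 2885 genes over and 1510 under among all genes, against 1929 and 1963 as deposited. The median of the forkhead genes ran from -0.20 (second-brightest probe set, 8 genes) to 0.27 (median centring). *Foxs1*, *Foxp2* and *Foxc2* were over 0.3 in all 8 alternatives that gave them a value, *Foxj2* in all 10 and *Foxj3* in 8 of 10, and *Foxl2* was under -0.3 in all 9. *Foxs1*, *Foxp2* and *Foxc2* had no value with the filter on both arrays or at the 75th percentile, or by the second-brightest probe set. With 1 probe set each, *Foxs1* and *Foxc2* kept their reported ratio with no filter or another choice of probe set, so those alternatives could not change it. *Foxc1* was over 0.3 in 5 of 10. *Foxo1* had -0.28 by the median over probe sets and -0.29 by the second-brightest one. *Foxn2* had 0.38 and *Foxo4* -0.86 by the median over probe sets, and *Foxs1* had 1.95 with a pseudocount of 25.1 and 1.29 with a floor of 56.9. Each genotype rests on 1 pool of 3 mice, so differences between mice were not measured, and the spread between passing probe sets of 1 gene, 0.41 on the log2 scale, exceeds most forkhead ratios.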

Other observations

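A pair of probe sets named a forkhead gene together with other genes and entered no comparison. The one shared by *Foxo3* and *Gm38485* had 47.5 in Tg and 52.9 in WT WAT (-0.16). The one shared by *Foxm1*, *Tex52* and *Pebp1* had 23.8 in Tg and 49.5 in WT WAT (-1.06).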
